A study of Rattus norvegicus with 10 samples.

Results

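The genes described here are 9 peroxisomal fatty acid oxidation genes of rat liver: Abcd3, Amacr, Acox2, Ehhadh, Hsd17b4, Ech1, Hacl1, Crat and Pex11a. They were chosen by symbol, as all probe sets that the platform annotation pairs with exactly 1 gene whose symbol is one of the 9, and this gave 10 probe sets of the 31042 tested, or 9 of 14217 genes. Pex11a has 2 probe sets and each of the other genes has 1. Hepatic RNA of 10 male Sprague-Dawley rats, 5 weeks old by the labels, was hybridised to 1 Affymetrix rat genome array per rat. The 5 rats of the iron-deficient group were fed a diet with about 3 ppm iron, made by leaving ferric citrate out of the control diet, and the 5 rats of the pair-fed group were given matched amounts of the control diet with 48 ppm iron. Both groups were on their diet for 3 days and were killed 1.5 h after feeding, as the methods put it, so that the comparison asks how a short iron deficiency altered hepatic expression in the fed state. Each replicate is a separate rat, and whole liver was used, in which fewer cells of a type and less RNA per cell cannot be told apart. The values are log2 signals from the robust multiarray average (RMA), and a log2 fold change is the iron-deficient mean minus the pair-fed mean.

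Peroxisomes shorten fatty acids that mitochondria handle poorly, such as very long, methyl-branched and dicarboxylic acids, and they trim the side chain of bile acid precursors. Acyl-CoAs enter through membrane transporters and pass an oxidase, which hands electrons to oxygen and gives hydrogen peroxide, then a bifunctional hydratase and dehydrogenase, and a thiolase. Auxiliary enzymes prepare unsaturated, branched and hydroxylated chains, and carnitine acyltransferases help the products to leave. In rodent liver many of these genes are targets of PPAR-alpha, a nuclear receptor that binds fatty acids and pairs with the receptor RXR.

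In the iron-deficient group 3 of the 9 genes were down-regulated by rank products (RP) at a false discovery rate (FDR) under 0.05, and these were Hacl1, Ech1 and Crat. Their signals were 1.50-fold, 1.46-fold and 1.38-fold lower, with log2 fold changes of -0.58, -0.55 and -0.46. RP called 0.602% of all probe sets lower. No member was up-regulated by RP, which called 0.293% of all probe sets higher. Of the 9 genes 8 had a lower mean in the iron-deficient group, against 52.5% of all genes, and the median log2 fold change was -0.23, against -0.01 over all genes. The members were chosen with earlier results of these data known, so these values are a description and not a test. The remaining 6 genes did not pass in either direction. By limma, which weighs the spread between rats, 0 members had an adjusted p under 0.05, as 0% of all probe sets did, and the lowest adjusted p of a member was 0.601. At an unadjusted limma p under 0.05 there were 4 of 9 members, all lower (Hsd17b4, Ech1, Hacl1 and Crat), where 3.77% of all probe sets were lower at that level. No member had every iron-deficient rat below every pair-fed rat, which held for 0.799% of all probe sets.

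**Figure D1:**
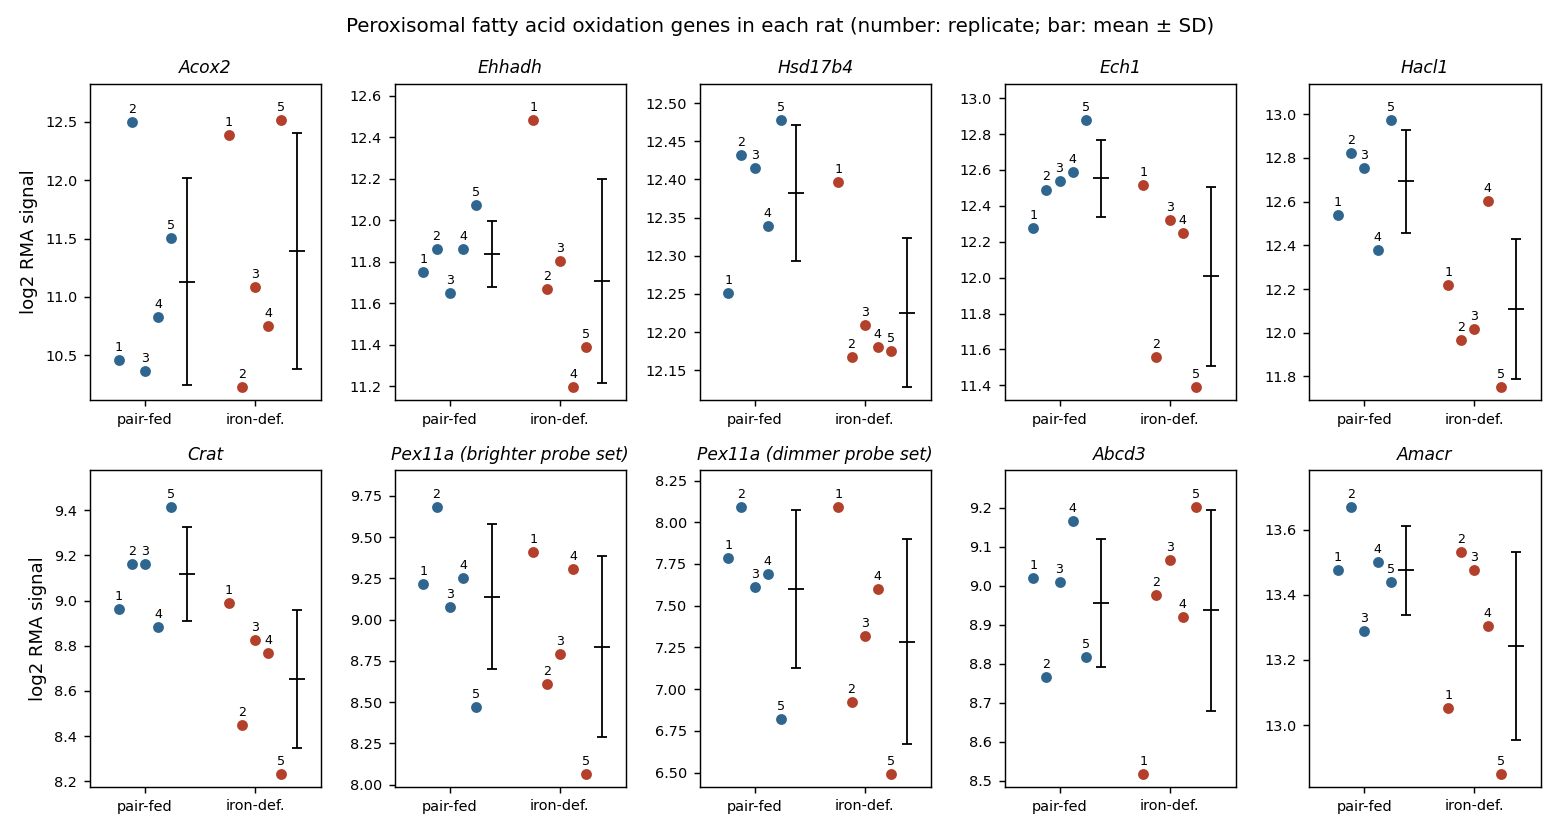
Log2 RMA signal (vertical axis, a separate scale in each panel) of the 10 probe sets in each pair-fed rat (blue) and each iron-deficient rat (red), with the replicate number above each point and the mean ± SD as a black bar. In Hacl1, Ech1 and Crat, and also in Hsd17b4, which did not pass, all 5 iron-deficient rats lie below the pair-fed median. The Acox2 points of both groups spread over more than 2 log2 units.

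Hacl1 encodes hydroxyacyl-CoA lyase, which cleaves the hydroxylated chain in the alpha-oxidation of phytanic acid and depends on thiamine pyrophosphate. Crat encodes carnitine acetyltransferase, which turns acetyl-CoA into acetylcarnitine in peroxisomes and mitochondria. Their promoters, and that of Acox2 for contrast, are shown because Hacl1 and Crat are the down-regulated members with a promoter in the table used, and Acox2 is the member that varied most between rats. Each sequence runs 5′ to 3′ in the direction of the gene, from 250 bases before the annotated start to 50 bases from it on, as given by RefSeq for the assembly GRCr8. The Hacl1 window is chr16:6869361-6869660 on the minus strand, the Crat window chr3:34087050-34087349 on the minus strand, and the Acox2 window chr15:19090705-19091004 on the plus strand. Capitals mark GC boxes (GGGCGG or its complement CCGCCC) and CCAAT boxes (CCAAT or its complement ATTGG).
Hacl1: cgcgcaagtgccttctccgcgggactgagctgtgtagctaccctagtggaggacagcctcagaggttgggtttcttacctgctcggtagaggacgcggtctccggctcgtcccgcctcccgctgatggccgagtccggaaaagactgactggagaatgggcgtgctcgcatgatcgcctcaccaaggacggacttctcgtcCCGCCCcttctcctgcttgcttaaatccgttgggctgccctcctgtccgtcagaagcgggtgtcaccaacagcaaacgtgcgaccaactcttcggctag
Crat: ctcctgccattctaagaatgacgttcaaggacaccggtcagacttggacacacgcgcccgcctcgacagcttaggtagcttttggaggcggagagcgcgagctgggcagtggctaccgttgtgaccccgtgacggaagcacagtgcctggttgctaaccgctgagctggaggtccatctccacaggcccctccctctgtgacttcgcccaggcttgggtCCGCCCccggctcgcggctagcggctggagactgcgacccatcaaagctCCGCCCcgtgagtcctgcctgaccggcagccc
Acox2: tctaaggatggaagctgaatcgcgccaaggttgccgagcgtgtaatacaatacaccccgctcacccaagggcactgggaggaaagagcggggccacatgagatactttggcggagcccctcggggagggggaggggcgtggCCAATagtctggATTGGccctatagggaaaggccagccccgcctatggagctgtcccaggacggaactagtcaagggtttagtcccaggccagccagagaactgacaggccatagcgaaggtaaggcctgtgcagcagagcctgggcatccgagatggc

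The table held promoters for 8 of the 9 members, all but Ech1. A GC box, searched on both strands as GGGCGG, was present in 7 of the 8 windows, against 55.8% of the promoters of 13192 genes on the array and 33.1% of all 33469 promoters. Hacl1 had one match, starting at -49, and Crat had matches starting at -31 and 19, counted from 1 at the first transcribed base. Acox2 was the member without a GC box, and it carried CCAAT matches at -109 and -97. Ehhadh was the other member with a CCAAT match, at -71, and CCAAT was present in 36.8% of the promoters of genes on the array. The nuclear receptor half-site AGGTCA was present in Hsd17b4 at -56 and in Amacr at -201, or 2 of 8 windows, against 13.2% of the promoters of genes on the array. The repeat of that half-site with 1 base between, AGGTCANAGGTCA, which contains it, was present in 0 of 8 windows and in 0.0303% of the promoters of genes on the array, and with the relaxed form AGGNCANAGGNCA the share was 0 of 8 against 0.417%. TATAAA was present in 0 of 8 windows and in 8.47% of the promoters of genes on the array. GC content of the member windows ran from 54% in Hsd17b4 to 75% in Abcd3, and the median over genes on the array was 59.7%. These are matches of letters within one window, and binding was not measured.

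The Hacl1 signal was 12.22, 11.97, 12.02, 12.60 and 11.75 in iron-deficient replicates 1 to 5, and 12.54, 12.82, 12.75, 12.38 and 12.97 in pair-fed replicates 1 to 5. Iron-deficient replicate 4 was the one rat of its group inside the pair-fed range, and the other 4 lay below every pair-fed rat. The log2 fold change was -0.58 (SE 0.151), with an FDR of 0.00734 by RP, an adjusted p of 0.601 by limma and p = 0.0238 in the exact permutation test of the difference in means (2-sided). Hacl1 was the firmest of the 3 calls, since it passed RP in 9 of 10 fits that left out 1 rat and was lost only without pair-fed replicate 5, where the log2 fold change was -0.51.

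Crat signals were 8.99, 8.45, 8.83, 8.77 and 8.23 in iron-deficient replicates 1 to 5, and 8.96, 9.16, 9.16, 8.88 and 9.41 in pair-fed replicates 1 to 5. Again 4 of 5 iron-deficient rats were below every pair-fed rat, and here replicate 1 was the exception. On the log2 scale the Crat difference was -0.46 (SE 0.141), with an FDR of 0.0388 by RP, an adjusted p of 0.601 by limma and p = 0.0238 in the exact permutation test. The call was close to the threshold: it passed in 4 of 10 fits that left out 1 rat, and leaving out iron-deficient replicate 2 or 5, or any pair-fed rat but replicate 4, ended it, with log2 fold changes from -0.50 to -0.36. It was also lost when dim probe sets were left out, and when the 5 same-numbered pairs of rats were ranked in place of all 25 pairs.

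Ech1 encodes a dienoyl-CoA isomerase of peroxisomes and mitochondria that shifts double bonds so that unsaturated chains can be oxidised. Its signal was 12.51, 11.56, 12.32, 12.25 and 11.39 in iron-deficient replicates 1 to 5, and 12.28, 12.49, 12.54, 12.59 and 12.88 in pair-fed replicates 1 to 5. The iron-deficient rats were uneven: replicates 2 and 5 stood well below all others, replicate 4 was just under the lowest pair-fed rat, and replicates 1 and 3 were within the pair-fed range. For Ech1 the log2 difference came to -0.55 (SE 0.201), with an FDR of 0.0204 by RP, an adjusted p of 0.662 by limma and p = 0.0476 in the exact permutation test. Ech1 passed RP in 4 of 10 fits that left out 1 rat, and failed once iron-deficient replicate 2 or 5, or any pair-fed rat but replicate 1, was left out. In those fits the log2 fold change ran from -0.56 to -0.39.

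**Figure D2:**
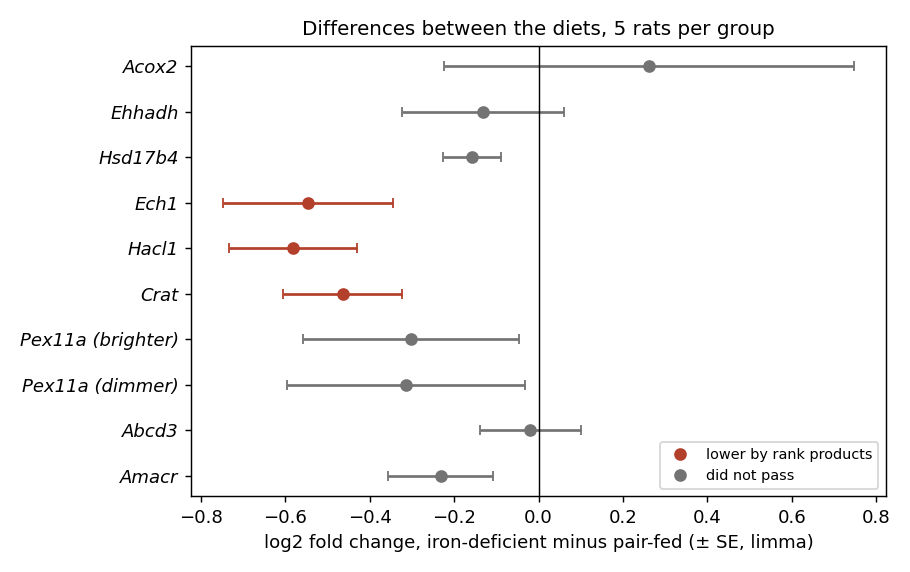
Log2 fold change (iron-deficient minus pair-fed, horizontal axis) of each member probe set with its standard error from limma as a bar; red points passed the rank products as lower and grey points passed in neither direction. Hacl1, Ech1 and Crat lie between -0.58 and -0.46, Acox2 is the one point above 0, and its bar is the widest.

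Hsd17b4 and Ehhadh encode the bifunctional enzymes of the pathway, the first acting on branched chains and bile acid intermediates and the second best known for dicarboxylic acids. For Hsd17b4 the signal was 12.40, 12.17, 12.21, 12.18 and 12.17 in iron-deficient replicates 1 to 5, and 12.25, 12.43, 12.41, 12.34 and 12.48 in pair-fed replicates 1 to 5. All iron-deficient rats but replicate 1 were below every pair-fed rat, although the difference was small, at a log2 fold change of -0.16 (SE 0.0685), and the gene did not pass RP (FDR 0.927 for lower). By the exact permutation test p was 0.0317, and the adjusted p by limma was 0.695. Its SD within groups was 0.0932, low among the members, of which the other 8 had 0.215 to 0.951 by their brightest probe set.

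Ehhadh, by contrast, measured 12.48, 11.67, 11.80, 11.20 and 11.39 in iron-deficient replicates 1 to 5, and 11.75, 11.86, 11.65, 11.86 and 12.08 in pair-fed replicates 1 to 5. The iron-deficient group held both the highest rat of all, replicate 1, and the lowest, replicate 4, and enclosed the pair-fed range. The log2 fold change was -0.13 (SE 0.192, exact permutation p = 0.603), and it ran from -0.32 without iron-deficient replicate 1 to -0.00 without iron-deficient replicate 4, with -0.05 without iron-deficient replicate 5 and -0.07 without pair-fed replicate 5. Unlike Hsd17b4, Ehhadh was uneven within the iron-deficient group, as its SD was 0.493 in the iron-deficient group and 0.159 in the pair-fed group.

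Acox2 encodes an acyl-CoA oxidase of bile acid intermediates, and the oxidase performs the first step of each round. Its signal was 12.39, 10.23, 11.08, 10.75 and 12.51 in iron-deficient replicates 1 to 5, and 10.46, 12.50, 10.37, 10.83 and 11.51 in pair-fed replicates 1 to 5. Rats of both groups stood high (iron-deficient replicates 1 and 5, pair-fed replicate 2) and low (iron-deficient replicate 2, pair-fed replicates 1 and 3), so that the ranges nearly coincided. The SD within groups was 0.951, at percentile 99.8 of all probe sets, and the log2 fold change of 0.26 (SE 0.485, exact permutation p = 0.690) did not pass RP (FDR 0.110 for higher). The value rested on single rats. It was 0.60, and passed as higher, once pair-fed replicate 2 was left out. Leaving out iron-deficient replicate 2 gave 0.55 and replicate 4 gave 0.42, whereas leaving out iron-deficient replicate 1 gave 0.01 and replicate 5 gave -0.02. The value was 0.09 when pair-fed replicate 1 was left out, and 0.07 when replicate 3 was.

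Amacr and Abcd3 act before the oxidase. Amacr encodes the racemase that turns methyl-branched acyl-CoAs and bile acid intermediates into the form that oxidases accept. Abcd3 encodes a transporter of the peroxisomal membrane that imports branched and dicarboxylic acyl-CoAs. Amacr signals were 13.05, 13.53, 13.48, 13.31 and 12.85 in iron-deficient replicates 1 to 5, and 13.48, 13.67, 13.29, 13.50 and 13.44 in pair-fed replicates 1 to 5. Iron-deficient replicates 1 and 5 were below the pair-fed range and the others were inside it. The log2 fold change was -0.23 (SE 0.124, exact permutation p = 0.183) and was -0.13 without iron-deficient replicate 5.

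For Abcd3 the signal was 8.52, 8.98, 9.07, 8.92 and 9.20 in iron-deficient replicates 1 to 5, and 9.02, 8.77, 9.01, 9.17 and 8.82 in pair-fed replicates 1 to 5. The groups overlapped over nearly their whole ranges, apart from the low iron-deficient replicate 1. The log2 fold change was -0.02 (SE 0.120, exact permutation p = 0.905), and its sign turned without iron-deficient replicate 1 (0.09) and without pair-fed replicate 4 (0.03).

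Pex11a encodes a membrane protein that elongates peroxisomes before they divide, and it is a known PPAR-alpha target. The brighter of its 2 probe sets measured 9.41, 8.61, 8.79, 9.31 and 8.07 in iron-deficient replicates 1 to 5, and 9.22, 9.68, 9.08, 9.25 and 8.47 in pair-fed replicates 1 to 5. The dimmer one measured 8.09, 6.92, 7.32, 7.60 and 6.49 in the iron-deficient rats, and 7.78, 8.09, 7.61, 7.69 and 6.82 in the pair-fed rats, in the same order of replicates. Both probe sets placed replicate 5 lowest in either group and the groups overlapped in both. The log2 fold changes were -0.30 (SE 0.256, exact permutation p = 0.357, FDR 0.153 for lower) and -0.31 (SE 0.282, exact permutation p = 0.397, FDR 0.103 for lower). The brighter probe set passed as lower without iron-deficient replicate 1, at -0.45, and its log2 fold change was -0.11 without iron-deficient replicate 5, -0.17 without pair-fed replicate 2 and -0.47 without pair-fed replicate 5.

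The members did not all follow one another rat by rat: Crat, Ech1, Hsd17b4 and Hacl1 ran together over much of the rats, and Acox2 and Abcd3 did not run with them. Iron-deficient replicate 5 was the lowest of all 10 rats in 5 genes (Ech1, Hacl1, Crat, Pex11a and Amacr) and the highest in Acox2 and Abcd3. Pair-fed replicate 5 was the highest rat in Hsd17b4, Ech1, Hacl1 and Crat, and low in Pex11a. Averaged over the 9 genes, the log2 deviation from the pair-fed mean was 0.08, -0.46, -0.19, -0.22 and -0.41 in iron-deficient replicates 1 to 5, and -0.15, 0.23, -0.11, -0.06 and 0.08 in pair-fed replicates 1 to 5. Replicate 1 thus stood among the pair-fed rats by this average, while replicates 2 and 5 lay lowest. For the 3 down-regulated genes alone the deviation was -0.21, -0.80, -0.40, -0.25 and -0.99 in iron-deficient replicates 1 to 5. In pair-fed replicates 1 to 5 it was -0.19, 0.04, 0.03, -0.17 and 0.30. These 3 genes were picked as lower on the same arrays, so a lower mean in the iron-deficient group was set in advance.

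**Figure D3:**
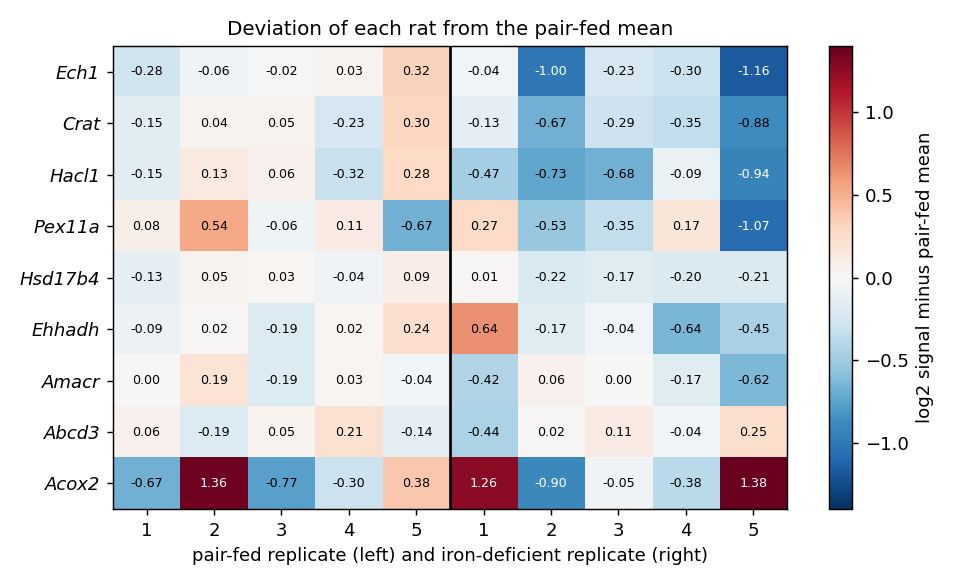
Deviation of each rat (columns) from the pair-fed mean of each gene (rows, brightest probe set) on the log2 scale, with blue for lower and red for higher signals; the vertical line parts pair-fed rats from iron-deficient rats. Iron-deficient replicates 2 and 5 are lowest in Ech1 and Crat, with -1.16 for Ech1 in replicate 5, whereas Acox2 reaches 1.26 and 1.38 in iron-deficient replicates 1 and 5 and 1.36 in pair-fed replicate 2.

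Across the 10 arrays, the signal of each member was correlated with the mean of the other 8, each scaled to its own mean and SD, as a description of points that share arrays and diet. Pearson's r was 0.91 for Crat, 0.88 for Ech1, 0.83 for Hsd17b4 and 0.73 for Hacl1, and after centring within each diet group it was 0.86, 0.84, 0.66 and 0.48. Amacr, Ehhadh and Pex11a had r of 0.35, 0.43 and 0.47, and centred within groups 0.01, 0.47 and 0.39. Acox2 had an r of -0.07, which became 0.11 after centring, and Abcd3 ran the other way, at -0.62 and, centred within groups, -0.88. The genes outside the list with a probe set most like the mean of the members over the 10 arrays were Abcb10 (r = 0.937), LOC102549016 (0.937), Zup1 (0.935), Pacsin2 (0.933), Mif4gd (0.931), Cacul1 (0.928), Ddx24 (0.918), Snx2 (0.916), Adck1 (0.913) and Mtmr2 (0.902), none of which passed RP; for Zup1 and Pacsin2 a dimmer probe set of the gene was the one alike.

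The other genes of the pathway were counted from lists. Of 20 further genes of peroxisomal beta-oxidation and acyl-CoA handling, 16 had a probe set paired with 1 gene, of which 2 were down-regulated by RP, none was up-regulated and 12 had a lower mean, with a median log2 fold change of -0.09. The down-regulated genes were Acot4, at -0.56 (SE 0.203, FDR 0.0121), and Acot3, at -0.43 (SE 0.154, FDR 0.0401), both acyl-CoA thioesterases. Acot4 passed in 6 of 10 fits that left out 1 rat, and was lost without iron-deficient replicate 5 or pair-fed replicates 1, 3 or 5. Acot3 passed in 1 of 10, without iron-deficient replicate 1, and was also lost with dim probe sets left out and with the replicate block. Nudt7, a peroxisomal hydrolase of coenzyme A, had the next largest difference, at -0.30, and did not pass.

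Apart from Hacl1 itself, the listed genes of alpha-oxidation held no calls, and neither did the peroxins. RP called 0.602% of all probe sets lower and 0.293% higher. All 4 alpha-oxidation partners were measured, 0 passed in either direction and 3 had a lower mean, with a median of -0.06. Phyh, the phytanoyl-CoA hydroxylase upstream of Hacl1, had a log2 fold change of -0.11, Slc27a2, an acyl-CoA synthetase, -0.09, and Ilvbl, a lyase related to Hacl1, 0.10, with -0.04 in its dimmer probe set. Of 16 peroxins, the proteins that build peroxisomes, 13 were measured, 0 passed and 11 had a lower mean, with a median of -0.11. Pex16, Pex3 and Pex11g had the largest differences, at -0.22, -0.16 and -0.15, although a second, dimmer probe set of Pex16 gave 0.11.

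Among 25 measured of 28 other peroxisomal enzymes and membrane proteins, 1 was up-regulated and none was down-regulated, 16 had a lower mean, and the median was -0.02. The up-regulated gene was Pxmp4, a peroxisomal membrane protein, at 0.54 (SE 0.243, FDR 0.0161), with 0.39 and no call in its dimmer probe set. Pxmp4 passed in 6 of 10 fits that left out 1 rat, and was lost without iron-deficient replicates 2, 3 or 4 or pair-fed replicate 3. Hsdl2, a dehydrogenase-like protein, had -0.32 and no call in its brighter probe set, and -0.44 with an FDR of 0.0490 for lower in the dimmer one, a call that 3 of 10 fits without 1 rat retained (log2 fold changes -0.59 to -0.31) and that ended with quantile normalization, with the filter on dim probe sets and when the Pex11a probe sets were averaged. Hao2, a hydroxyacid oxidase, had -0.17.

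All 17 listed genes of mitochondrial beta-oxidation were measured, of which 1 was down-regulated, none was up-regulated and 13 had a lower mean, with a median of -0.09. The down-regulated gene was Eci1, the mitochondrial enoyl-CoA isomerase, which serves unsaturated chains as Ech1 does, at -0.50 (SE 0.199, FDR 0.0270). Eci1 passed in 4 of 10 fits that left out 1 rat, and failed in the same 6 as Ech1. Its second, dim probe set gave 0.06 and did not pass. Decr1, the dienoyl-CoA reductase of the same auxiliary route, had -0.31 with every iron-deficient rat below every pair-fed rat and did not pass RP, and Cpt1a, which gates entry of fatty acids into mitochondria, had -0.35 and did not pass. Of PPAR-alpha and its partners all 8 were measured, 0 passed and 2 had a lower mean, with a median of 0.08. Ppara itself had a log2 fold change of 0.12, Rxra 0.14 and the coactivator Ppargc1a 0.31, by their brightest probe sets.

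**Figure D4:**
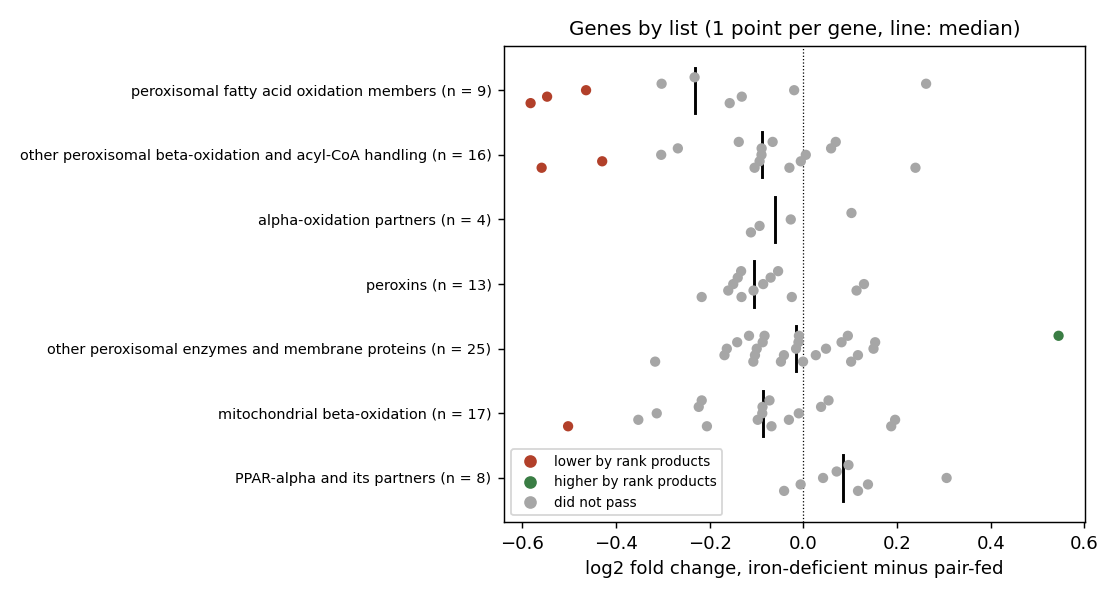
Log2 fold change (iron-deficient minus pair-fed, horizontal axis) of every measured gene in 7 lists, 1 point per gene by its brightest probe set, with the list's median as a black line, red for genes lower and green for genes higher by rank products. The 9 members have the lowest median, at -0.23, and the other lists have medians from -0.11 to 0.08. Members and lists were chosen with earlier results of these data known, so this order is a description and not a test.

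The tissue matched its label, as 8 measured hepatocyte markers had mean log2 signals of 13.9 or more. Between the diets 0 of the 8 passed RP, and 7 had a higher mean in the iron-deficient group. The log2 of the hepatocyte markers' summed signal was 17.6152 to 17.6478 in the iron-deficient group and 17.5812 to 17.6148 in the pair-fed group. The ranges thus nearly touched, and the means differed by 0.03. Red cell markers moved with the diet: 5 of 6 measured were down-regulated, with a median log2 fold change of -0.85, and the log2 of their summed signal was 13.14 to 13.83 in the iron-deficient group and 13.71 to 14.34 in the pair-fed group. Of 7 pericentral hepatocyte markers 2 were down-regulated (Glul at -0.47 and Slc1a2 at -0.64), with summed signals of 15.28 to 15.51 and 15.36 to 15.52. Dimmer probe sets of Glul gave -0.25 without a call and -0.53 with a call, and that of Slc1a2 gave 0.04 without a call. Of 8 periportal markers 2 were up-regulated (Sds at 0.30 and Aldh1b1 at 0.68), with summed signals of 15.51 to 15.81 and 15.41 to 15.73. Kupffer cell, endothelial, stellate and cholangiocyte markers, 22 measured genes, held no calls, with summed signals of 12.38 to 12.86 against 12.48 to 13.25 in Kupffer cell markers, 12.48 to 12.58 against 12.35 to 12.48 in endothelial markers, 12.66 to 13.27 against 12.46 to 12.70 in stellate cell markers and 8.56 to 9.04 against 8.79 to 9.19 in cholangiocyte markers. The difference between 3′ and 5′ control probe sets was highest in iron-deficient replicate 1 for GAPDH (0.36, others -0.05 to 0.11) and beta-actin (1.74, others 1.08 to 1.33). The part of these shifts in the members' differences was not tested.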

How the data were processed

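Liver RNA of 5 iron-deficient and 5 pair-fed rats was measured on 1 array each. The deposited values are log2 RMA signals that the authors computed, with R and Bioconductor as the methods state, and RMA sets a common distribution on all arrays (array medians 6.19 to 6.22). Array number, not read depth, limits the precision. Groups were taken from title and treatment, since the source field of the control samples names the iron-deficient diet. Batch and scan date are not given in the sources used here. The members and lists were chosen with earlier results of these data known.

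Of all probe sets, 57 controls were left out and 31042 were tested. The platform annotation pairs 20826 with 1 gene, 436 with several and 9780 with none listed. The brightest probe set stood for a gene. Symbols came from the platform annotation, and all 9 members matched RefSeq by gene ID. Promoters came from RefSeq (GRCr8) and were at hand for 8 of the 9, all but Ech1.

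Rank products ranked the 25 differences between a rat of each group over all probe sets, with 100 permutations of values within arrays, and an FDR under 0.05 passed (numpy 2.4.6, scipy 1.17.1 and pandas 2.3.3, run under Python 3.11.15). limma 3.58.1 in R 4.3.3 (lmFit, eBayes, Benjamini-Hochberg over all probe sets) gave fold changes, SE and adjusted p. Each member probe set also had a 2-sided exact permutation test of its means, which cannot give a p below 0.00794 with 5 rats a group. Of these 10 unadjusted p-values 4 were under 0.05. Figures were drawn with matplotlib 3.10.9. Both tests were also run on simulated data with known changes and independent noise, with fewer permutations for the rank products. Their recovery at the size of the members' differences is not reported here.

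Named were every member, every listed gene past the rank products and the 3 largest differences of each list, Ppara, Rxra and Ppargc1a, marker genes that passed, and the 10 genes most like the members' mean. Alternatives were the rank sum, limma, the filter on dim probe sets, median centring, quantile normalization, the mean of a gene's probe sets, a replicate block, another seed and leaving out each rat.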

Additional observations from a re-analysis of the deposited data

Results flagged for a closer look

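The Hsd17b4 signal of iron-deficient replicate 1 was 12.40, apart from the other 4 rats of its group, of which the nearest was at 12.21 and the lowest at 12.17. It was 1 of 20 tests, for the 10 member probe sets in both groups, and chance alone sets about 1 in 20 such groups apart. Without this rat the log2 fold change of Hsd17b4 was -0.20, and the gene still did not pass the rank products. The same rat had the highest difference between 3′ and 5′ control probe sets, for GAPDH (0.36) and beta-actin (1.74). Whether that bears on its Hsd17b4 signal was not tested.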

How the results depend on the processing

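The 3 down-regulated members became 0 with the rank sum of the same differences and 0 by limma. The calls of Acot4, Acot3, Eci1, Pxmp4 and Hsdl2 were lost with the rank sum too. Leaving out each rat in turn gave 0 to 4 members lower, with 0 without pair-fed replicate 5 and 4 without iron-deficient replicate 1, when Pex11a passed as well, and 0 to 1 members higher. With the replicate block, which ranks the 5 same-numbered pairs, 2 members were lower and 1 (Acox2, log2 fold change 0.26) was higher. Whether the numbers pair the rats is not given in the sources used here. Same-numbered rats correlated at -0.04 to 0.09, and 1 of 5 correlated best with its own number. These correlations cannot decide it, since they measure likeness of signals and not which rats were matched in food. The median log2 fold change of the members was -0.32 to -0.13 when 1 rat was left out (-0.32 without iron-deficient replicate 1, -0.13 without iron-deficient replicate 5, -0.17 without pair-fed replicate 2), and limma called 0 members in every setting tried, the replicate block included. Over all probe sets the rank sum called 1 higher and 32 lower, against 91 and 187 by rank products, and leaving out 1 rat gave 47 to 99 higher and 84 to 188 lower. With dim probe sets left out there were 46 higher and 117 lower. At an unadjusted p under 0.05 limma had 2168 probe sets, and 0 after adjustment. The cause of these changes was not tested. Median centring, quantile normalization, the mean of the Pex11a probe sets and another seed kept 3 members lower and 0 higher.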

Other observations

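After the values had been seen, the genes nearest to Ech1 over the 10 arrays were listed, as a description of points that share arrays and diet. The nearest was Eci1 (r = 0.97, and 0.96 after centring within groups), followed by Acot12 (0.97), a cytosolic acetyl-CoA hydrolase, and Slc4a4 (0.95). Crat (0.94), Hadhb of the mitochondrial trifunctional protein (0.94) and Lonp2, the peroxisomal Lon protease (0.92), were also among the 10 nearest. The rest of the 10 were Adpgk (0.94), Mtmr2 (0.93), Abraxas2 (0.93) and Pgrmc1 (0.92), which are on none of the lists and did not pass. Crat and Eci1 passed the rank products, and Acot12, at a log2 fold change of -0.36, Hadhb, at -0.21, and Lonp2, at -0.16, did not. The same listing for Acox2 was headed by Smo (0.93), C2cd2 (0.91) and Nkapd1 (0.90), none of which passed.

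Ephx2, a hydrolase of fatty acid epoxides on the list of other peroxisomal enzymes, had 1 rat of each group far below the rest. Its signal was 10.24, 10.04, 11.04, 10.73 and 7.40 in iron-deficient replicates 1 to 5, and 10.13, 11.09, 7.48, 10.31 and 10.45 in pair-fed replicates 1 to 5. It was chosen after its values were seen.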
